A study of Mus musculus with 3 samples.

Results

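Glucose uptake and its breakdown to lactate run through a chain of proteins, and 10 of their genes are described here: the glucose transporter gene Slc2a1, the hexokinase genes Hk1 and Hk2, the phosphofructokinase gene Pfkl, and the genes of aldolase (Aldoa), triosephosphate isomerase (Tpi1), phosphoglycerate kinase (Pgk1), phosphoglycerate mutase (Pgam1), pyruvate kinase (Pkm) and lactate dehydrogenase (Ldha). They were chosen by name, with earlier results of these data known. The probes used carried a single gene symbol in the platform annotation and had a value on all 3 arrays. All 10 genes were measured, by 13 of their 14 probes, among 14047 genes and 19660 probes with a value on every array. Each array held RNA of microdissected metanephric mesenchyme of CD1 mouse embryos at 10.5 days post coitum (dpc) in channel 1, and of metanephroi at 11.5 dpc in channel 2. Both tissues were untreated, came from embryos of an unmodified stock with the sexes pooled, and were hybridised as amplified RNA. The dye order was red/green for arrays 1 and 2, and array 3 had it swapped. The labels do not say whether separate dissections supplied the 3 arrays, so the errors and p-values measure only the spread between arrays, which may be technical.

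Glycolysis splits glucose into pyruvate in the cytosol and yields ATP without oxygen, and lactate dehydrogenase then regenerates the NAD+ that the pathway uses up. SLC2A1 (GLUT1) carries glucose across the plasma membrane in most embryonic tissues, hexokinase traps it as glucose 6-phosphate, and phosphofructokinase commits it to the pathway. Many of these genes are known targets of the hypoxia-inducible factor HIF-1 and of MYC, and kidney rudiments grow by rapid proliferation, a state in which much glucose is commonly turned to lactate. The design asks which transcripts differ between the mesenchyme before and the rudiment after entry of the ureteric bud, an epithelial tube that induces the mesenchyme.

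The values are log2 ratios between the channels of each array. The labels do not tell which tissue is the numerator, so the sign of a ratio separates the tissues without naming the one that had more RNA. Arrays 1 and 2 ran the same way. Array 3, of the other dye order, was read as deposited with its sign already matched to the others, since its ratios correlated above 0 across 19660 probes with array 1 (Pearson 0.0517, Spearman 0.211) and array 2 (Pearson 0.0148, Spearman 0.171). Those correlations are near 0, against 0.324 and 0.466 between arrays 1 and 2, and probes are not independent replicates. As deposited, 2750 genes had an unadjusted p under 0.05 by limma, and 779 did with array 3 turned. The smallest adjusted p of a gene by limma went the other way, at 0.149 as deposited and 0.06 with array 3 turned. Some large ratios were close on all 3 arrays as deposited, as for the mesenchyme marker Crym (2.02, 1.82 and 1.89) and the yolk sac and liver marker Afp (-1.60, -1.72 and -1.72), chosen after their values were seen. Other markers were not close, as for Pax2 of the mesenchyme (-0.05, 0.66 and -1.61) and Hoxb7 of the ureteric bud (-0.20, 0.48 and -5.16), chosen likewise. Genes picked in this way cannot settle the orientation of array 3. The values the account leads with are therefore given also with array 3 turned or from arrays 1 and 2 alone. The extreme ratios leaned to opposite sides by dye order: the 1st and 99th percentiles were -3.96 and 2.01 on array 1, -3.95 and 2.26 on array 2, and -2.25 and 3.59 on array 3. A ratio carries no level, so whether either tissue expressed a marker could not be read from it, and in whole tissue fewer cells of a type and less RNA per cell cannot be told apart.

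No gene of the pathway passed the test across all genes. By limma, 0 of 14047 genes (0%) and 0 of 19660 probes (0%) had a Benjamini-Hochberg adjusted p under 0.05, with smallest values of 0.149 and 0.193. At an unadjusted p under 0.05 there were 2750 genes. Since the members were chosen with earlier results of these data known, the counts that follow describe them and test nothing. Of the 10 members, 3 lay under that limit on the negative side, where 9.69% of all genes did, and 0 on the positive side, where 9.89% did. The 3 were Slc2a1, Pgk1 and Pfkl, and with array 1, 2 or 3 left out only Slc2a1 was under the limit, 1 member each time. The median of the 10 gene means was -0.29, against -0.0019 over all genes, and 6 means were negative and 4 positive. Negative on all 3 arrays were 4 members, Slc2a1, Pfkl, Pgk1 and Pgam1, where 22.5% of all genes were, and 1 member, Pkm, was positive on all 3, where 22.9% were. On arrays 1 and 2, which share their dye order, 6 members were negative on both, where 32.7% of genes were. With array 3 turned, the members' median was 0.01 against 0.04 over all genes. 0 members then had an unadjusted p under 0.05, where 5.55% of all genes did (2.47% on the negative side), so that count says nothing about the members in particular. In that orientation only Ldha and Tpi1 were negative throughout, a pattern shown by 10.2% of all genes.

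**Figure D1:**
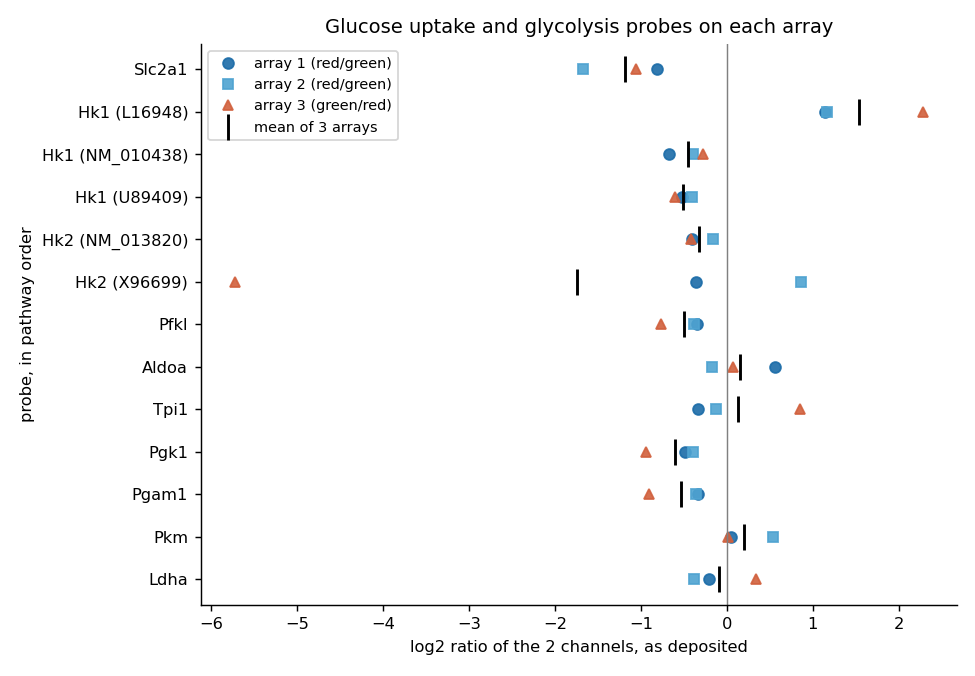
Log2 ratio of each of the 13 probes on each array (x axis) against the probes in pathway order (y axis), with a bar at the mean of the 3 arrays. Slc2a1 lies between -1.68 and -0.81, Hk1 probes lie on both sides of 0, and 1 Hk2 probe reaches -5.72 on array 3.

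The promoters of the 4 members negative on every array are shown because they carry the deposited pattern, with that of Ldha, a well known HIF-1 target whose ratio changed sign with the dye order. Each run is the 250 bases before the RefSeq start in build GRCm38.p6, 5' to 3' along the gene. Capitals mark ACGTG or GCGTG on either strand, the core of the hypoxia response element, and the E-box CACGTG contains that core. The stretches are chr4:119108495-119108744 on the plus strand for Slc2a1, chr10:78009808-78010057 on the minus strand for Pfkl, chrX:106186850-106187099 on the plus strand for Pgk1, chr19:41911621-41911870 on the plus strand for Pgam1 and chr7:46845554-46845803 on the plus strand for the first of the Ldha starts.
Slc2a1: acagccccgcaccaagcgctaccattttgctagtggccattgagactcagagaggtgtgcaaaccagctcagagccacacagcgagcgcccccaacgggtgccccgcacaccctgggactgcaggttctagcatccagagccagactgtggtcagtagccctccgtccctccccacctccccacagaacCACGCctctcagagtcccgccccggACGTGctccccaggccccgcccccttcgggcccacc
Pfkl: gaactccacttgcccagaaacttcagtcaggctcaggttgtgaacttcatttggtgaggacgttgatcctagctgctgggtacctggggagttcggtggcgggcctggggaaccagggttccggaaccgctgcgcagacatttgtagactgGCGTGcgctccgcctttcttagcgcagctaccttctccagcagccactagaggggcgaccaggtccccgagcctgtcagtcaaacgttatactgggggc
Pgk1: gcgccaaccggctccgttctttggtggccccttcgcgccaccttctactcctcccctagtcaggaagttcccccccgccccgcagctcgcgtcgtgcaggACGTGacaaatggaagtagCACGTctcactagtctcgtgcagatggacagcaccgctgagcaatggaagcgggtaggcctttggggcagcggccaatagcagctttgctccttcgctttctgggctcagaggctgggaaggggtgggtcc
Pgam1: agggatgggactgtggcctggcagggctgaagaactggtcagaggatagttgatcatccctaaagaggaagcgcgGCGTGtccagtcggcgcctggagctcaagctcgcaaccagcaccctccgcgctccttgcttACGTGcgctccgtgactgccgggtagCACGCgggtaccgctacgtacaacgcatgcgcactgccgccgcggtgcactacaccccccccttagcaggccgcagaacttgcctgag
Ldha: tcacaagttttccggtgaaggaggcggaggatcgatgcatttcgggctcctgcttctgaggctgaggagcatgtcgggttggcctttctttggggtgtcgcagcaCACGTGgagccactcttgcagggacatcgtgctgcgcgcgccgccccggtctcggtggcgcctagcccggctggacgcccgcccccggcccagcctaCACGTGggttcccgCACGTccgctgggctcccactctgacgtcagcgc

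The core stood 61 and 36 bases before the start of Slc2a1, 99 before that of Pfkl, 150 and 131 before that of Pgk1, and 175, 114 and 88 before that of Pgam1. Ldha held it at 3 separate places, 2 of them E-boxes. All 10 members matched the RefSeq table, with 15 starts. Of these, 11 held the core, against 38.6% of all 32851 starts, and 1 held the E-box, against 6% of all. The windows of 2 Aldoa starts overlap and hold the same core, which is counted at both in the members' counts. Members' windows were rich in G and C, and GC-rich windows hold the core more often: among starts with at least 60% GC it was in 63.8% of all and in 9 of 10 of the members'. The members without a core in a window were Tpi1, and 1 start each of Hk1, Aldoa and Pkm. The core was thus in windows of genes with negative ratios, such as Slc2a1, and in windows of genes near 0, such as Aldoa. A match of these letters is a description of the sequence and not a measured binding site.

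Glucose uptake gave the lowest mean among the members. Slc2a1 had a log2 ratio of -0.81 on array 1, -1.68 on array 2 and -1.06 on array 3. All 3 arrays lay on the negative side, within the lowest 8.44%, 3.9% and 6.36% of genes on their array. The mean was -1.18 ± 0.45 (SD, n = 3), a 2.27-fold difference in size, with a 95% interval from -1.83 to -0.53 by limma. Its adjusted p over all genes was 0.162 by limma and its unadjusted p was 0.0076. Slc2a1 was also the member whose unadjusted p by limma stayed under 0.05 without any 1 array, at 0.0185 without array 1, 0.0246 without array 2 and 0.0336 without array 3. On arrays 1 and 2 alone its mean was -1.24, and with array 3 turned it was -0.48, with an unadjusted p of 0.453 by limma.

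Hexokinase 1, the form found in most tissues, was read by probes that disagreed. The probe designed to NM_010438 gave -0.67, -0.39 and -0.28 on arrays 1 to 3, and that to U89409 gave -0.52, -0.40 and -0.60. The probe to L16948 gave 1.14, 1.17 and 2.28. So 2 probes were negative on every array, with means of -0.45 ± 0.20 and -0.51 ± 0.10 (SD, n = 3), and 1 was positive on every array, with a mean of 1.53 ± 0.65. The fourth probe, to L16950, had 0.27 on array 1, -0.23 on array 3 and no value on array 2, and stayed out by the rule. The gene's mean over its 3 probes, 0.19 ± 0.25, therefore stands for no single probe. With the median over probes in place of the mean it was -0.40, and with the probe of smallest spread it was -0.51. Probe means of opposite sign were found for 493 of 916 genes with several probes, or 53.8%. Turning array 3 brought the L16948 probe to 0.01 and left those of NM_010438 and U89409 at -0.26 and -0.11.

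Hexokinase 2, the form induced by insulin and hypoxia and abundant in muscle, had 1 steady and 1 unsteady probe. The probe to NM_013820 gave -0.40, -0.17 and -0.42 on the 3 arrays, all negative, with a mean of -0.33 ± 0.14 (SD, n = 3). The probe to X96699 gave -0.35, 0.86 and -5.72. Its array 3 value lay in the lowest 0.0102% of probes there, and its mean of -1.74 ± 3.50 had a 95% interval by limma from -5.97 to 2.49. The gene mean of -1.03 ± 1.80 thus rests on 1 spot of array 3, and without that array it was -0.02. With the probe of smallest spread it was -0.33, and with extreme values limited on each array it was -0.56.

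Pfkl, the liver form of the enzyme that commits sugar to glycolysis, had -0.34 on array 1, -0.38 on array 2 and -0.76 on array 3. All 3 values were negative, with array 3 the lowest. The mean was -0.50 ± 0.23 (SD, n = 3), a 1.41-fold difference in size, with an adjusted p of 0.238 and an unadjusted p of 0.0414 by limma. Without array 1, 2 or 3 the unadjusted p was 0.115, 0.106 and 0.101. On arrays 1 and 2 the mean was -0.36, and with array 3 turned it was 0.01.

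**Figure D2:**
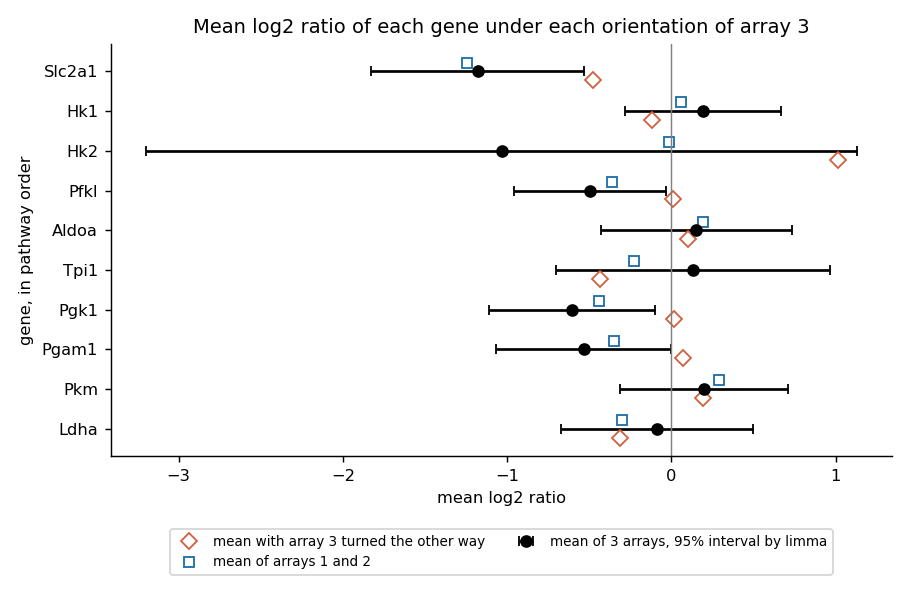
Mean log2 ratio (x axis) of each gene in pathway order (y axis), as the mean of 3 arrays with its 95% interval by limma (filled), the mean of arrays 1 and 2 (squares) and the mean with array 3 turned the other way (diamonds). Slc2a1 stays on the negative side in all of them, while Pfkl, Pgk1 and Pgam1 come to 0.01, 0.02 and 0.07 with array 3 turned.

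Aldolase and triosephosphate isomerase, which split the sugar and interconvert the products, showed no common sign. Aldoa had 0.56, -0.18 and 0.07 on arrays 1 to 3, with a mean of 0.15 ± 0.37 (SD, n = 3), and its sign turned without array 1, at -0.05. Tpi1 had -0.33, -0.13 and 0.85. Arrays 1 and 2 of Tpi1 were negative and array 3 lay at percentile 91.3 of the genes there, so the mean of 0.13 ± 0.63 (SD, n = 3) became -0.23 without array 3. With array 3 turned, Tpi1 had -0.44 and Aldoa 0.10.

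The enzymes that follow, in the phase that yields ATP, held both other members with negative ratios throughout. Pgk1, which makes the first ATP of that phase, had -0.49, -0.39 and -0.94 on arrays 1 to 3. Its mean was -0.61 ± 0.29 (SD, n = 3), a 1.52-fold difference in size, with an adjusted p of 0.211 and an unadjusted p of 0.0299 by limma, and the unadjusted p was between 0.0629 and 0.0998 with an array left out. Pgam1, the mutase that moves the phosphate group, had -0.33, -0.36 and -0.91. Its mean was -0.53 ± 0.32 (SD, n = 3), a 1.45-fold difference, with an adjusted p of 0.255 by limma. Like Pfkl, both had close values on arrays 1 and 2 and a lower one on array 3. On arrays 1 and 2 their means were -0.44 and -0.35, and with array 3 turned they were 0.02 and 0.07.

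The last steps lay near 0. Pkm, whose product makes pyruvate, had 0.04, 0.54 and 0.01 on arrays 1 to 3, positive on each but at 0.01 on the lowest. Its mean was 0.20 ± 0.29 (SD, n = 3), with a 95% interval from -0.31 to 0.71. Ldha, which turns pyruvate into lactate, had -0.21, -0.39 and 0.34, so that the sign differed between the dye orders. Its mean was -0.09 ± 0.38 (SD, n = 3). It came to 0.06 without array 2 and to 0.02 with a dye term in the fit, and on arrays 1 and 2 it was -0.30.

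**Figure D3:**
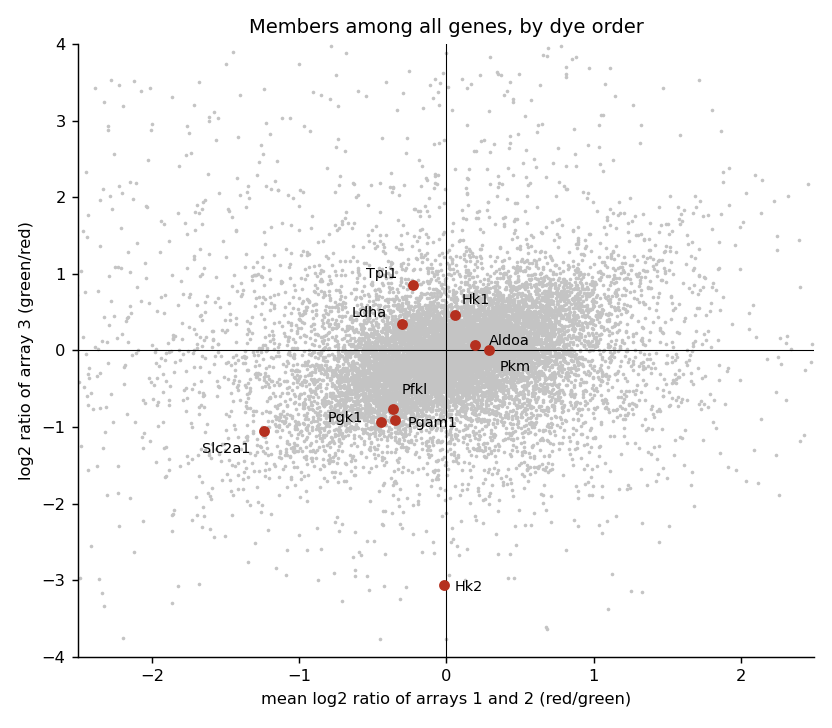
Mean log2 ratio of arrays 1 and 2 (x axis) against that of array 3 (y axis) for all genes (grey) and the 10 members (red, named). Slc2a1, Pfkl, Pgk1 and Pgam1 share a negative sign on both axes, Tpi1 and Ldha lie at opposite signs. Genes beyond the axis limits are not drawn.

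The members' spread between arrays was like that of other genes, with a median SD of 0.35 against 0.34 over all genes. Hk2 had the largest, 1.80, at the 95.6th percentile of SDs, followed by Tpi1 at the 75.3rd. Pfkl had the smallest, 0.23, at the 33.1st. For Slc2a1, Pfkl, Aldoa, Tpi1, Pgk1, Pgam1, Pkm and Ldha each, 1 probe was available, so probe disagreement of the kind seen in Hk1 could not be looked for.

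The other measured forms of these enzymes shared the sign of the member's mean at some steps, as for Pgk2, and not at others, as for Pfkp. Of 20 genes in a list of further transporters, isoenzymes and lactate carriers, 11 had a negative and 9 a positive mean, 6 were negative and 4 positive on all 3 arrays, and the median was -0.03. No gene of the list passed the adjusted test by limma, and at an unadjusted p under 0.05, 3 were negative and 1 positive. Of all genes, 9.69% were negative and 9.89% positive at that limit, and 22.5% were negative and 22.9% positive on all 3 arrays. Eno3, the muscle enolase, had -0.94, -1.56 and -1.11 on arrays 1 to 3, with a mean of -1.20 ± 0.32 (SD, n = 3) and an adjusted p of 0.157 by limma. Its 2 probes were close, at -1.25 and -1.16, and with array 3 turned the mean was -0.46. Pgk2, the form of testis and a paralog of Pgk1, had -0.75, -1.53 and -0.91, with a mean of -1.06 ± 0.41. Eno2, the neuronal enolase, had 0.49 ± 0.59. Whether probes of paralogs take up each other's RNA was not tested.

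Among transporters, Slc2a3 (GLUT3) had 0.16 ± 0.29 (SD, n = 3) and Slc2a4, the insulin-regulated form, had -0.05 ± 0.57, both with arrays of either sign, unlike Slc2a1. The phosphofructokinase genes Pfkp and Pfkm had 0.28 ± 0.16 and -0.01 ± 0.44, and Pfkp was positive on every array while Pfkl was negative on every array. On arrays 1 and 2 alone the means were -0.36 for Pfkl and 0.31 for Pfkp, and with array 3 turned they were 0.01 and 0.13. The difference between these genes was not tested. Pfkfb3, which makes the activator of phosphofructokinase, had 0.41 ± 0.12, and Pfkfb2 had 0.10 ± 0.79. The Pfkfb2 value joined 2 probes and stands for neither: 1 was negative on every array with a mean of -0.43, and 1 was of mixed sign with a mean of 0.64. Gapdh had -0.08 ± 0.11 and its testis form Gapdhs had -0.43 ± 0.12. Aldoc had 0.02 ± 1.59, Pgam2 of muscle had -0.20 ± 0.74, and Bpgm, which makes the regulator of haemoglobin in red cells, had 0.27 ± 0.15. Ldhb had -0.25 ± 0.23 and the testis form Ldhc 0.52 ± 0.35. The lactate carriers had -0.37 ± 0.34 (Slc16a1), -0.04 ± 0.31 (Slc16a3), 0.03 ± 0.31 (Slc16a7) and -0.21 ± 0.14 (Slc16a8).

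Downstream of pyruvate, in a list of 25 genes of pyruvate entry and the tricarboxylic acid cycle, 8 were negative and 8 positive on all arrays and the median was -0.05. No gene of it passed the adjusted test by limma, and at an unadjusted p under 0.05, 7 were negative and 2 positive. The shares over all genes were 9.69% negative and 9.89% positive at that limit, and 22.5% negative and 22.9% positive on all arrays. A negative count above the share of all genes was thus not particular to the 10 members. Negative throughout were Sdhc and Sdha, subunits of succinate dehydrogenase, at -0.92 ± 0.13 and -0.91 ± 0.39 (SD, n = 3), Dlst of the oxoglutarate dehydrogenase complex at -0.84 ± 0.26, and Pdk3, a kinase that inhibits pyruvate dehydrogenase, at -0.62 ± 0.10. Positive throughout were Mpc1, a subunit of the mitochondrial pyruvate carrier, at 0.77 ± 0.07, Sucla2 at 0.51 ± 0.22, Mdh1 at 0.44 ± 0.31 and Idh3g at 0.40 ± 0.33. Mpc1 had 0.77, 0.83 and 0.70 on arrays 1 to 3, a spread smaller than that of any of the 10 members.

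The pentose phosphate branch, which draws glucose 6-phosphate off to make NADPH and ribose, had 8 measured genes with a median of -0.13. Pgd, its second dehydrogenase, had -1.53, -1.38 and -2.15 on the 3 arrays and a mean of -1.69 ± 0.41 (SD, n = 3), with an adjusted p of 0.149 by limma. That mean was lower than that of Slc2a1, and with array 3 turned it was -0.25. Prps2 had -0.89 ± 0.73 and Pgls -0.18 ± 0.10, both negative throughout, and Rpia, an isomerase, was positive throughout at 0.64 ± 0.38. At an unadjusted p under 0.05 by limma 1 gene was negative and 1 positive, where 9.69% and 9.89% of all genes were.

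Of the hypoxia response, 24 genes were measured, with 6 negative and 6 positive on all arrays and a median of 0.03. The oxygen-regulated alpha subunits lay on opposite sides. Hif1a had 1.47, 1.03 and 0.77 on arrays 1 to 3, a mean of 1.09 ± 0.35 (SD, n = 3), and Epas1 (HIF-2 alpha) had -0.77, -0.76 and -1.18, a mean of -0.90 ± 0.24. Their adjusted p values by limma were 0.1585 and 0.159. With array 3 turned they were 0.58 and -0.12. Bnip3l, a mitophagy receptor, had 0.88 ± 0.24, Tfrc 0.24 ± 0.17 and Egln1, an oxygen-sensing hydroxylase, 0.19 ± 0.15. The Tfrc value joined 2 probes that differed, 1 positive on every array with a mean of 0.56 and 1 of mixed sign with a mean of -0.09. The hydroxylase genes P4ha1, Egln2 and P4ha2 had -0.50 ± 0.37, -0.36 ± 0.22 and -0.28 ± 0.07. At an unadjusted p under 0.05 by limma 1 gene of the list was negative and 2 were positive. Of all genes, 9.69% and 9.89% were, and 22.5% were negative and 22.9% positive on all arrays. Many of the 10 members are known HIF-1 targets, so all are set beside these. Means were negative for Slc2a1 (-1.18), Hk2 (-1.03), Pgk1 (-0.61), Pgam1 (-0.53), Pfkl (-0.50) and Ldha (-0.09). They were positive for Pkm (0.20), Hk1 (0.19), Aldoa (0.15) and Tpi1 (0.13). With array 3 turned, 4 members had a negative mean and Pgk1 had 0.02.

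**Figure D4:**
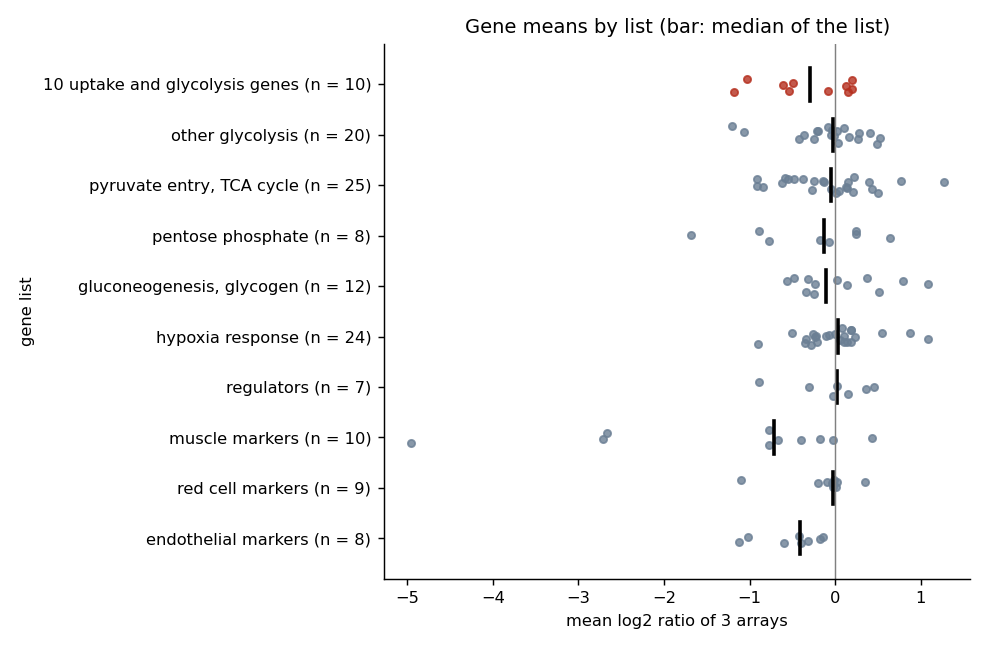
Mean log2 ratio over 3 arrays (x axis) of every measured gene of the lists drawn (y axis, n genes), with a bar at each list's median. Of the marker lists only muscle, red cell and endothelial markers are drawn. The 10 members have a median of -0.29, the 6 other pathway lists lie between -0.13 and 0.03, and muscle markers reach -4.96.

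The members' median was -0.29, with 6 negative and 4 positive means. Markers of muscle, of endothelium and of yolk sac and liver also had negative medians, while the other marker lists lay near 0 or above it. Over all 14047 genes, 7048 had a negative mean, and 22.5% were negative and 22.9% positive on all 3 arrays. Of 10 skeletal muscle markers, 9 had a negative mean and 5 were negative on all arrays, with a median of -0.72 and array medians of -0.87, -0.79 and -0.54. Among them Acta1 had -4.96, Tnnc1 -2.72 and Myl1 -2.66, while Ckm, the muscle creatine kinase, had -0.02. Actc1 had the positive mean, 0.43, with arrays of mixed sign. Muscle is rich in glycolytic enzymes, and of its isoforms Eno3 was negative on every array while Pfkm and Pgam2 were of mixed sign. All 8 endothelial markers had a negative mean, 7 of them on every array, with a median of -0.41 and array medians of -0.56, -0.43 and -0.45. Of 5 yolk sac and liver markers 4 were negative throughout, while Alb was positive throughout at 0.36, and the median was -1.34. Red cell markers had a negative mean in 6 of 9 genes, a median of -0.03 and array medians of -0.26, -0.23 and 0.12, with the globin genes Hba-a1 and Hbb-y at -0.03 and 0.01 and the red cell factor gene Klf1 at -1.10. Neural markers had a median of 0.002 over 7 genes. On the positive side, 4 of 5 stroma markers were positive throughout, while Pdgfra was negative throughout at -0.42, and the median was 1.47. Mesenchyme and ureteric bud markers had medians of 0.14 (11 genes) and 0.12 (10 genes). The part of these cell types in the members' ratios was not tested.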

How the data were processed

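Two-colour Compugen mouse oligonucleotide arrays were quantified with Imagene 5.5, per the labels' descriptions. Those name print-tip lowess and between-array normalization in R, and also describe a lowess curve fitted with 20% of the data per point and a floor of 10 for the control channel. The values deposited are log2 ratios, the lowest being a ratio of 0.01. The sources used here give neither the numerator nor a genome build. Intensities were not analysed here, which leaves signal over background unknown, and precision is limited by having 3 arrays.

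Of 22702 table rows, 21918 were gene probes (16656 with 1 symbol, 137 with several, 5125 with none). Probes with a value on all 3 arrays were averaged per symbol and array. Entrez identifiers matched for 15970 probes and changed 0 symbols. The mean of 3 arrays was tested against 0, two-sided, over all genes and all probes using limma 3.58.1 (lmFit, then eBayes; R 4.3.3) and Benjamini-Hochberg adjusted p-values. The test was first run on simulated data. Figures used Matplotlib 3.10.9 in Python 3.11.15.

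Every member and probe is named, with every measured gene of the further glycolysis list. Of each other pathway list up to 4 genes per side are named, by smallest unadjusted p among those of 1 sign on all arrays. Ckm, Acta1, Tnnc1, Myl1, Actc1, Alb, Pdgfra, Klf1 and the globin genes were chosen after their values were seen. The members and lists were chosen with earlier results of these data known. Alternatives covered array 3 turned, centring, scaling, quantile normalization, a dye term, each array left out, variance and weight settings, limited extreme values, values on at least 2 arrays, and other ways of joining probes.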

Additional observations from a re-analysis of the deposited data

How the results depend on the processing

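At an adjusted p of 0.05 by limma, 0 genes and 0 probes passed under every alternative run. Of the 10 members, those negative at an unadjusted p numbered 3 as reported (9.69% of all genes), 0 with array 3 turned (2.47%), 5 with a dye term (10.6%), 5 with the probe of smallest spread (10.3%), 1 without variance moderation (8.65%) and 1 to 1 with an array left out (4.32% to 9.25%). With a dye term, array 3 is alone in its dye order, so the spread in that fit comes from arrays 1 and 2 only. Hk2, whose mean rests on 1 spot of array 3, was among the 5 counted there, at -1.54. Members negative on every array used numbered 4, and 2 with array 3 turned, 5 with the median over probes, 6 with the probe of smallest spread and 4 to 6 with an array left out, where fewer arrays need to share the sign. The orientation of array 3 moved the results most among the settings that kept all arrays, reversing 6 members, and the cause was not tested.

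With array 3 turned the reversed means were Hk1 -0.12, Hk2 1.01 (its X96699 probe 2.07), Pfkl 0.0122, Tpi1 -0.44, Pgk1 0.0176, Pgam1 0.0703, Slc2a3 -0.0095, Pfkm 0.18, Aldoc -0.0028, Pgam2 0.40, Ldhb 0.0658, Slc16a3 0.16, Txnip 0.13, Egln2 0.0115 and Pgls 0.0035. Scaling gave Aldoc -0.0709 and Slc16a7 -0.00066, quantile normalization gave Pfkm 0.0012, and the dye term gave Ldha 0.0204. Array weights gave Tpi1 -0.12, Slc2a4 0.16, Pfkm 0.22, Aldoc -0.64, Pfkfb2 -0.11 and Slc16a7 -0.0941. The median over probes gave Hk1 -0.40, and the probe of smallest spread gave Hk1 -0.51 and Pfkfb2 -0.43.

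With an array left out, means crossed 0 for Aldoa (-0.0516 to 0.32), Ldha (-0.30 to 0.0639), Tpi1 (-0.23 to 0.36), Slc2a4 (-0.30 to 0.26), Pfkm (-0.27 to 0.12), Aldoc (-0.77 to 0.82), Pfkfb2 (-0.35 to 0.40), Slc16a7 (-0.13 to 0.18), Pgam2 (-0.59 to 0.14), Slc16a3 (-0.21 to 0.0925) and the X96699 probe of Hk2 (-3.04 to 0.25). Slc2a1 kept its sign under every alternative run. Each array holds both tissues and its ratio is already the pair, so the test of the mean ratio is a paired one.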

Other observations

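Genes of glucose storage lay on both sides. Of 12 measured genes of gluconeogenesis and glycogen, 4 were negative and 3 positive on all arrays, with a median of -0.11. Over all genes, 22.5% were negative and 22.9% positive on all arrays. Gbe1, the glycogen branching enzyme, had 1.51, 0.80 and 0.95 on arrays 1 to 3, a mean of 1.09 ± 0.38 (SD, n = 3), and the phosphorylase genes Pygm and Pygl had 0.79 ± 0.33 and 0.38 ± 0.34. On the negative side were Gys1, the muscle glycogen synthase, at -0.48 ± 0.24, Pgm1, which links glucose 6-phosphate to glycogen, at -0.56 ± 0.37, Fbp2 at -0.31 ± 0.31 and the glycogenin gene Gyg at -0.24 ± 0.18. No gene among these passed the adjusted test by limma, and the smallest adjusted p among them was 0.16, of Gbe1.

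Of 7 regulators of glycolysis, Txnip, whose product promotes the removal of SLC2A1 from the cell surface, had -0.59, -0.55 and -1.52, a mean of -0.89 ± 0.55 (SD, n = 3), on the same side as Slc2a1, with an adjusted p of 0.214 by limma. Its mean was 0.13 with array 3 turned. Mycn had -0.30 ± 0.17, Myc had 0.16 ± 0.04 and Ppara had 0.36 ± 0.14.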
